A study of Mus musculus with 6 samples.

Results

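The mitosis genes are 40 genes of the G2 and M phases of the cell cycle, listed by symbol and read here in mouse bone marrow 6 h after an injection of erythropoietin. A probe belonged to the set when its transcript accession matched 1 of the 40 genes in RefSeq, and a gene was represented by its brightest probe. Probes matched 39 genes, and all 39 passed the filter on dim probes. Prc1, a bundler of midzone microtubules, was matched by no probe and is not analysed here. They stand among 14853 genes tested in all. Of the 39 probes, 38 were well above background on all 6 arrays, and that of Ttk was so on every array but rHuEPO replicate 3.

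The marrow came from femurs of ISAM mice, whose genotype is written Epo-/-::3.3K-Epo3'-Tg458: the endogenous erythropoietin gene is deleted and an Epo transgene is carried instead. ISAM mice are known as adult-onset anemic animals, in which the transgene keeps the fetus and newborn alive and does not replace renal erythropoietin in the adult. Every animal, control or treated, had this genotype on a mixed strain background and was a male of 10 weeks. The 3 rHuEPO arrays hold marrow taken 6 h after recombinant human erythropoietin at 3000 U/kg into the peritoneal cavity. The study's control group joins 2 arrays of marrow taken 6 h after phosphate-buffered saline (PBS) and 1 array of untreated marrow. There is no wild-type marrow among these arrays, so the values describe a response within this genotype only. The samples are numbered as replicates without naming separate animals, and p-values measure only the spread between them. The untreated array and rHuEPO replicate 1 shared a first slide and scan (slide 1), while both PBS arrays and rHuEPO replicates 2 and 3 shared another (slide 2). Whole marrow mixes dividing erythroid, myeloid and lymphoid cells, so a lower signal from fewer cells of a type and one from less RNA per cell cannot be told apart.

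Cells enter mitosis when cyclin B binds and activates the kinase Cdk1, and they leave it when the anaphase-promoting complex marks cyclin B and securin for destruction. Between these steps the spindle is built by kinesins and microtubule-bundling proteins, chromosomes attach through kinetochores, and a checkpoint delays anaphase until all are attached. Most of these genes are transcribed in late S, G2 and M phase, so their RNA in a tissue tracks how many of its cells are cycling. In marrow, erythroblasts divide several times while they mature, and erythropoietin is known for keeping their progenitors alive.

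The promoters of many mitosis genes carry the cell cycle homology region (CHR), a short element bound by the DREAM and MuvB complexes, beside CCAAT boxes bound by NF-Y. The RefSeq promoter table of build GRCm38.p6 holds 38 windows for 35 of the 40 genes, each with 250 bases before and 50 after the transcript start. The CHR was searched on both strands as TTTGAA, with TTCGAA as an alternative form. A match was found in 31 of the 38 windows (81.6%), against 19.2% of all 32851 windows in the table. CCAAT on either strand was found in 29 of them (76.3%), against 37.4% of all windows. Both were present in 27 (71.1%), against 7.52%. A match describes the letters only and does not show a binding site. A CHR match and a CCAAT match can share an edge base.

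Windows are printed for 2 genes whose motifs lie close to the start, Cdk1 and Cdc20, and for the members with a window whose arrays did not overlap between the arms. They are written 5′ to 3′ in the direction of the gene, and capitals mark the CHR forms and CCAAT on either strand. Their positions are chr10:69352863-69353162, minus strand, for Cdk1, chr4:118437294-118437593, minus strand, for Cdc20, chr13:100786437-100786736, minus strand, for Ccnb1, chr7:131560120-131560419, plus strand, for Bub3, chr19:37376132-37376431, plus strand, for Kif11, and chr2:119618048-119618347, plus strand, for Nusap1.
Cdk1: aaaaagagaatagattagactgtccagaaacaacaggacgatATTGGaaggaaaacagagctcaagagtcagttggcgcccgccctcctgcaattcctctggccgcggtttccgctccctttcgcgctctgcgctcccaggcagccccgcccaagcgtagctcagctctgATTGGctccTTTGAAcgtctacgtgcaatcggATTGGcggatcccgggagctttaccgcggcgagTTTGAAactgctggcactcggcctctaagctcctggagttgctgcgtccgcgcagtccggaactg
Cdc20: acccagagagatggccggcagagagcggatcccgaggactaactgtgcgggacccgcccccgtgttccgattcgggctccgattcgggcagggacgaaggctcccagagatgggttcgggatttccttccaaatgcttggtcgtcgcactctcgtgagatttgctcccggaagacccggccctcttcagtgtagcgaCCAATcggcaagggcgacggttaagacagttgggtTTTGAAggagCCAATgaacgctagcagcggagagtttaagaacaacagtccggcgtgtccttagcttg
Ccnb1: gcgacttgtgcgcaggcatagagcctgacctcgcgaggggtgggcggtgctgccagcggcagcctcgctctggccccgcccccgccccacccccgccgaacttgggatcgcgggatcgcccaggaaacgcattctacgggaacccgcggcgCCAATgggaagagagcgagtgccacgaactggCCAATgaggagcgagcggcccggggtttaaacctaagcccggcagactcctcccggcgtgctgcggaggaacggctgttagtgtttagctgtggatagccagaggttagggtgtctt
Bub3: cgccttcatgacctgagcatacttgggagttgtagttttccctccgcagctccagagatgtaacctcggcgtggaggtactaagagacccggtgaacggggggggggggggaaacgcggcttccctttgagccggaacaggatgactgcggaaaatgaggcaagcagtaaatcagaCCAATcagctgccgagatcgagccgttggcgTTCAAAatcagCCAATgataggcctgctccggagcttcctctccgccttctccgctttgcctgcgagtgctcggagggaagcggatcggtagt
Kif11: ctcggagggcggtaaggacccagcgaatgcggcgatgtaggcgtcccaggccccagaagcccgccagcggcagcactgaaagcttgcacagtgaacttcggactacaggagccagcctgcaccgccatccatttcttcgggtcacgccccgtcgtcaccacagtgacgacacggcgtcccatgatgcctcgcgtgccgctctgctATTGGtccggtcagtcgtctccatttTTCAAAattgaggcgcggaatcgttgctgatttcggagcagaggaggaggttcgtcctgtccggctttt
Nusap1: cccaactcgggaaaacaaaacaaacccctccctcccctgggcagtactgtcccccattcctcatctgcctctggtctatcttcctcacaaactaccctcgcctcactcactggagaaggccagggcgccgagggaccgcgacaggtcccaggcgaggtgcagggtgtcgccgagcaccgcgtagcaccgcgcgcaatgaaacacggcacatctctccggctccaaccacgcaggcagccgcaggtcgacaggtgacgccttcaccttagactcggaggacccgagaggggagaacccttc
Counted from the transcript start, the CHR of Cdk1 began at -71 and again at -15, and that of Cdc20 began at -18. In Bub3, of which the first of 2 windows is printed, and in Kif11 it lay on the opposite strand, with its leftmost base at -43 and -19. The Ccnb1 window held CCAAT at -99 and -67 and neither TTTGAA nor TTCGAA. Other forms of the CHR were not searched, so this does not show that the window lacks one. The Nusap1 window held none of the letters searched, which says only that they are not in this window.

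The main comparison asked whether the marrow's mitotic transcripts had changed 6 h after rHuEPO. None of the 39 mitosis genes passed limma with Benjamini-Hochberg adjustment over all genes, where 10 of 14853 genes (0.0673%) passed, all higher. None of the 39 reached an unadjusted p under 0.05 either, against 4.96% of all genes. The members' differences, rHuEPO minus control in log2 units, ran from -0.49 for Kif20b to 0.36 for Ccnb1, with 19 above 0 and 20 below, where 47.3% of all genes lay above. Their median was -0.0029, beside -0.015 over all genes tested. With each array scaled to its median instead, 28 of the 39 lay above 0, with a median of 0.071 beside 0.059 over all genes.

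The intervals say how large a change the arrays would still allow. For 33 of the 39 members the 95% interval of the difference lay wholly between -1 and 1, that is within 2-fold either way, as it did for 76% of all genes tested. The 6 others were the centromere genes Cenpa, Cenpe and Cenpf, the kinesin Kif20b, the hyaluronan receptor and spindle protein Hmmr, and the cytokinesis factor Ect2. The standard errors of the members ran from 0.15 to 0.64, with a median of 0.22, beside 0.23 over all genes. The number of arrays limits this precision.

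**Figure D1:**
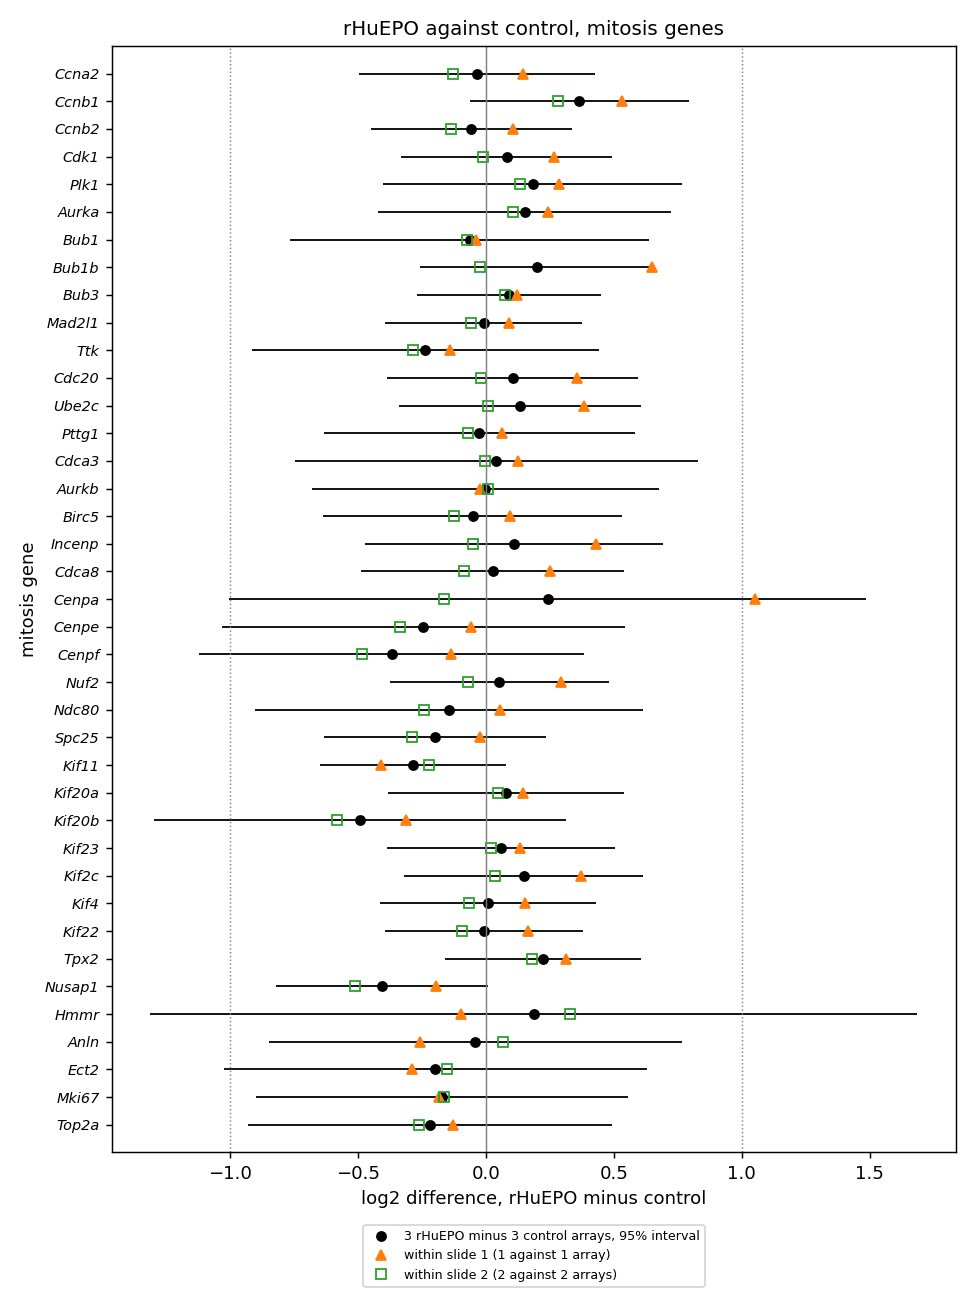
Log2 difference of each of the 39 tested mitosis genes, rHuEPO minus control, with the 95% interval from limma (black), the difference within slide 1 (triangles, 1 against 1 array) and within slide 2 (squares, 2 against 2 arrays). Dotted lines mark 2-fold either way. All 39 intervals cross 0, from Kif20b at -0.49 to Ccnb1 at 0.36.

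Each level in the following text is a log2 signal with its array's 75th percentile subtracted, so levels compare arrays for 1 probe and not genes with each other. In Ccnb1, Bub3 and Tpx2 the lowest rHuEPO array exceeded the highest control, as it did in 5.01% of all genes. In Nusap1 and Kif11 the highest rHuEPO array was under the lowest control, as it was in 5.39% of all genes. These shares, 3 and 2 of 39, are near the background.

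Ccnb1 encodes cyclin B1, the partner of Cdk1. Its level was 2.09 on the untreated array, 2.52 and 2.40 on the PBS arrays, and 2.62, 2.72 and 2.77 on the rHuEPO arrays. The arms were separate, with the untreated array lowest, and the difference was 0.36 ± 0.18 (SE, 3 against 3 arrays; 95% interval -0.065 to 0.79). It was 0.53 within slide 1 and 0.28 within slide 2. The 2 other tested Ccnb1 probes gave 0.19 and 0.17.

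Nusap1, a microtubule-binding protein of the spindle near chromosomes, had the smallest unadjusted p of the members (limma adjusted p = 1.00, and 0.413 with slide as a block). Its level was 3.16 on the untreated array, 3.15 and 3.47 on the PBS arrays, and 2.96, 2.74 and 2.85 on the rHuEPO arrays. All 3 rHuEPO arrays were below all controls, PBS replicate 2 was the highest, and the difference was -0.41 ± 0.18 (95% interval -0.82 to 0.0084), with -0.20 within slide 1 and -0.51 within slide 2.

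Kif11 is the plus-end-directed kinesin that pushes the spindle poles apart. Its level was 0.11 on the untreated array, 0.050 and 0.021 on the PBS arrays, and -0.30, -0.19 and -0.19 on the rHuEPO arrays. The rHuEPO arrays were all below 0 and the controls all above, and the difference was -0.29 ± 0.16, with -0.41 within slide 1 and -0.22 within slide 2.

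Tpx2 activates Aurora A on the spindle. Its level was 2.39 on the untreated array, 2.54 and 2.59 on the PBS arrays, and 2.70, 2.65 and 2.84 on the rHuEPO arrays. The lowest rHuEPO array exceeded the highest control by less than the spread within either arm, and the difference was 0.22 ± 0.16. Bub3, a checkpoint protein of the kinetochore, ran from 4.72 to 4.88 over all 6 arrays, the narrowest range of the members, and its difference was 0.089 ± 0.15.

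**Figure D2:**
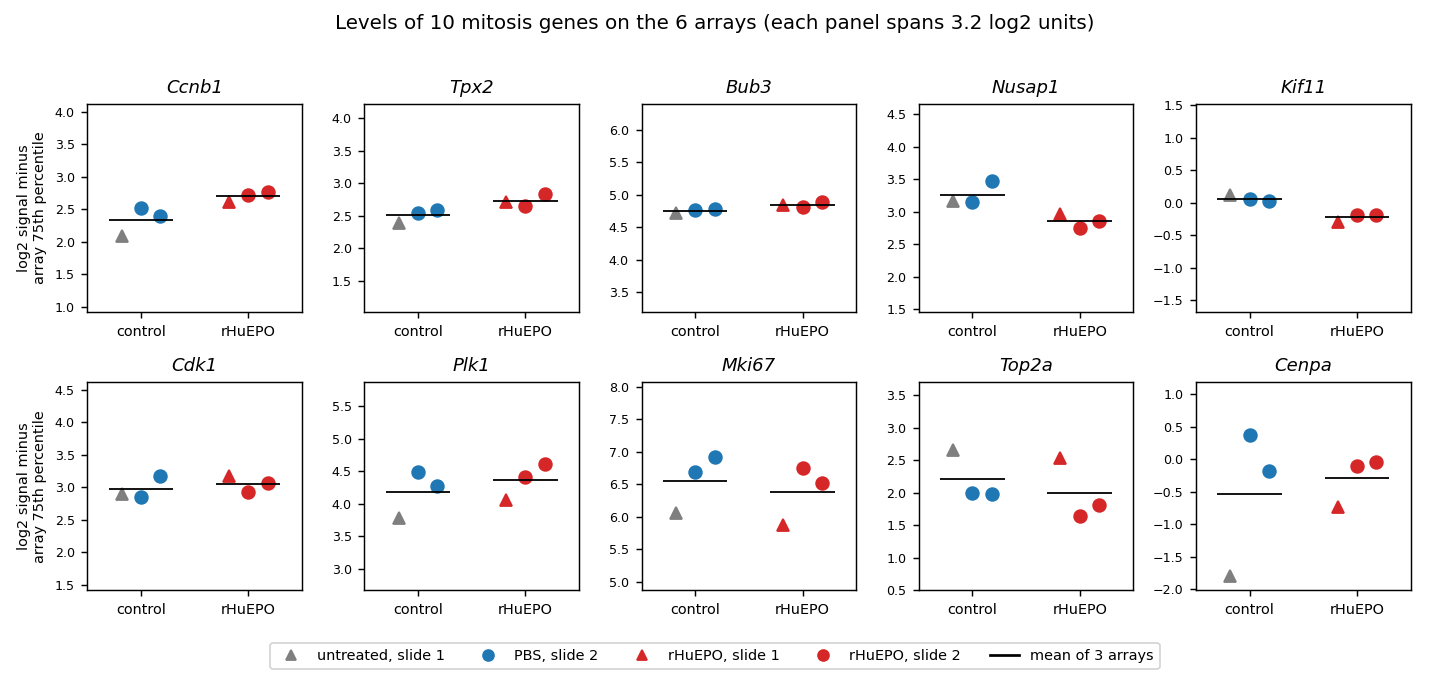
Levels of 10 mitosis genes on each array, as log2 signal minus the array's 75th percentile, with a line at the mean of the 3 arrays of each arm, colours for untreated, PBS and rHuEPO, and triangles for slide 1 and circles for slide 2. The arms are separate for Ccnb1, Tpx2, Bub3, Nusap1 and Kif11, while for Plk1, Mki67, Top2a and Cenpa both slide 1 arrays lie on 1 side of the slide 2 arrays.

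Among the cyclins and mitotic kinases, none of 6 members passed the test, 4 lay above 0 and the median difference was 0.12. Cdk1, the kinase that drives entry into mitosis, stood at 2.91 on the untreated array, 2.86 and 3.17 on the PBS arrays, and 3.17, 2.93 and 3.07 on the rHuEPO arrays. The arms overlapped, and the difference was 0.080 ± 0.18 (95% interval -0.33 to 0.49). Ccnb2, cyclin B2, was at 6.29 on the untreated array, 6.51 and 6.60 on the PBS arrays, and 6.39, 6.38 and 6.45 on the rHuEPO arrays, with a difference of -0.057 ± 0.17. Its 3 rHuEPO arrays lay inside the range of the controls, above the untreated array and below both PBS arrays.

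Ccna2, cyclin A2, which acts in S phase and G2, was at 5.14 on the untreated array, 5.09 and 5.59 on the PBS arrays, and 5.28, 5.13 and 5.30 on the rHuEPO arrays. PBS replicate 2 was highest, and the difference was -0.037 ± 0.20. Plk1, the polo-like kinase of spindle assembly and mitotic exit, was at 3.77 on the untreated array, 4.49 and 4.27 on the PBS arrays, and 4.06, 4.40 and 4.61 on the rHuEPO arrays. The untreated array was lowest and rHuEPO replicate 1, on the same slide, next to it, and the rHuEPO difference of 0.18 ± 0.25 was smaller than the slide difference of 0.53. Aurka, the Aurora kinase of the spindle poles, was at 4.36 on the untreated array, 4.94 and 4.93 on the PBS arrays, and 4.60, 4.89 and 5.19 on the rHuEPO arrays and showed the same order of slides, with a difference of 0.15 ± 0.24.

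Of the 5 checkpoint genes, 2 lay above 0 and 3 below, with a median of -0.0088 and none past the test. Bub1, the checkpoint kinase, was at 0.92 on the untreated array, 1.76 and 1.56 on the PBS arrays, and 0.88, 1.54 and 1.63 on the rHuEPO arrays. Both slide 1 arrays were low and the arms overlapped, with a difference of -0.064 ± 0.30. Bub1b, which encodes BubR1, was at 1.5 on the untreated array, 1.82 and 1.76 on the PBS arrays, and 2.15, 1.69 and 1.83 on the rHuEPO arrays. The highest value belonged to rHuEPO replicate 1, the other 2 rHuEPO arrays lay on either side of the PBS pair, and the difference was 0.20 ± 0.20, with 0.65 within slide 1 and -0.025 within slide 2.

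Mad2l1, the Mad2 protein that inhibits Cdc20, was at 1.35 on the untreated array, 1.47 and 1.57 on the PBS arrays, and 1.44, 1.36 and 1.56 on the rHuEPO arrays. The arms overlapped and the difference was -0.0088 ± 0.16 (95% interval -0.39 to 0.38). For Ttk, the Mps1 kinase, the difference was -0.24 ± 0.29, and the lowest reading came from the array where its probe was not well above background.

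The anaphase-promoting complex acts through Cdc20, its mitotic activator, and Ube2c, its ubiquitin-conjugating enzyme. Cdc20 was at 6.20 on the untreated array, 6.74 and 6.76 on the PBS arrays, and 6.55, 6.69 and 6.76 on the rHuEPO arrays. The untreated array was lowest, rHuEPO replicate 1, on the same slide, came next, and the slide 2 arrays lay close together. The rHuEPO difference was 0.10 ± 0.21. Ube2c was at 4.82 on the untreated array, 4.62 and 4.92 on the PBS arrays, and 5.21, 4.67 and 4.89 on the rHuEPO arrays. Its highest value was rHuEPO replicate 1 and its difference was 0.13 ± 0.20, with 0.38 within slide 1 and 0.0082 within slide 2.

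Pttg1, securin, which holds separase back until anaphase, was at 3.84 on the untreated array, 4.37 and 4.61 on the PBS arrays, and 3.90, 4.43 and 4.41 on the rHuEPO arrays. Both slide 1 arrays were below all slide 2 arrays, and the difference was -0.026 ± 0.26. Cdca3, a factor of mitotic entry, had a difference of 0.039 ± 0.34. The median of these 4 genes was 0.072, with none past the test. For the 16 subunits and cofactors of the complex in a separate list, all tested, the median was 0.032, 12 lay above 0 and none passed. Ube2s, the ubiquitin chain-elongating enzyme, had the smallest p there, with a difference of 0.33 ± 0.19, followed by Anapc15 with 0.44 ± 0.29.

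The chromosomal passenger complex corrects wrong attachments and then guides cytokinesis. Its kinase Aurkb was at 1.23 on the untreated array, 1.92 and 1.90 on the PBS arrays, and 1.21, 1.82 and 2.02 on the rHuEPO arrays. Both slide 1 arrays were low in both arms, and the difference was -0.0029 ± 0.29. Birc5, survivin, was at 5.92 on the untreated array, 6.45 and 6.53 on the PBS arrays, and 6.02, 6.11 and 6.62 on the rHuEPO arrays, with a difference of -0.052 ± 0.25 and overlapping arms. Incenp, the scaffold, and Cdca8, borealin, had differences of 0.11 and 0.026. The median of the 4 was 0.012, with none past the test.

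Centromere and kinetochore genes had the lowest median among the groups of more than 2 genes, -0.17, with 2 of 6 above 0 and none past the test. Cenpa, the histone H3 variant of centromeres, was at -1.79 on the untreated array, 0.37 and -0.18 on the PBS arrays, and -0.74, -0.11 and -0.035 on the rHuEPO arrays. The untreated array stood far below the rest, and the difference of 0.24 ± 0.53 had an interval of -1.004 to 1.49. Without the untreated array the difference turned to -0.39.

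Cenpe, the kinetochore kinesin, was at 4.95 on the untreated array, 5.90 and 5.94 on the PBS arrays, and 4.90, 5.73 and 5.43 on the rHuEPO arrays. Its difference was -0.24 ± 0.34, and the low arrays were those of slide 1. Cenpf, a large protein of the outer kinetochore, was at 2.67 on the untreated array, 3.38 and 3.77 on the PBS arrays, and 2.54, 3.25 and 2.93 on the rHuEPO arrays, with a difference of -0.37 ± 0.32. On slide 2 both PBS arrays exceeded both rHuEPO arrays, and on slide 1 untreated exceeded rHuEPO. Spc25, of the Ndc80 complex, was at 2.09 on the untreated array, 1.93 and 2.00 on the PBS arrays, and 2.07, 1.70 and 1.65 on the rHuEPO arrays, with a difference of -0.20 ± 0.18. Its partners Nuf2 and Ndc80 had differences of 0.052 and -0.14.

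Of 7 kinesins 4 lay above 0, with a median of 0.0072 and none past the test. Kif20a, the midzone kinesin of cytokinesis, was at 2.65 on the untreated array, 2.93 and 2.88 on the PBS arrays, and 2.79, 2.72 and 3.18 on the rHuEPO arrays. Its difference was 0.079 ± 0.20 and the highest array was rHuEPO replicate 3. Kif20b, a kinesin of late cytokinesis, was at -0.37 on the untreated array, 0.84 and 0.034 on the PBS arrays, and -0.68, 0.075 and -0.37 on the rHuEPO arrays. PBS replicate 1 stood well above the others, and the difference was -0.49 ± 0.34. Without that array it was -0.16, and the 2 other Kif20b probes gave -0.036 and -0.54. Kif23, Kif2c, Kif4 and Kif22 had differences of 0.059, 0.15, 0.0072 and -0.0076.

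Anln, anillin of the contractile ring, was at -1.43 on the untreated array, -2.54 and -2.33 on the PBS arrays, and -1.69, -2.49 and -2.24 on the rHuEPO arrays. The 2 slide 1 arrays were highest and the difference was -0.041 ± 0.34. Ect2, which activates RhoA at the division plane, had a difference of -0.20 ± 0.35. Hmmr ranged from -1.07 on rHuEPO replicate 1 to 0.96 on rHuEPO replicate 2, and had a difference of 0.19 ± 0.64.

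Mki67, which encodes the proliferation marker Ki-67, was at 6.07 on the untreated array, 6.68 and 6.92 on the PBS arrays, and 5.88, 6.75 and 6.53 on the rHuEPO arrays. Each slide 1 array lay below every slide 2 array, and the difference was -0.17 ± 0.31, with -0.18 within slide 1 and -0.17 within slide 2. Top2a, the topoisomerase that untangles sister chromatids, was at 2.65 on the untreated array, 1.99 and 1.97 on the PBS arrays, and 2.53, 1.63 and 1.80 on the rHuEPO arrays. Here the slide 1 arrays were the high ones, and the difference was -0.22 ± 0.30, with -0.13 within slide 1 and -0.26 within slide 2.

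**Figure D3:**
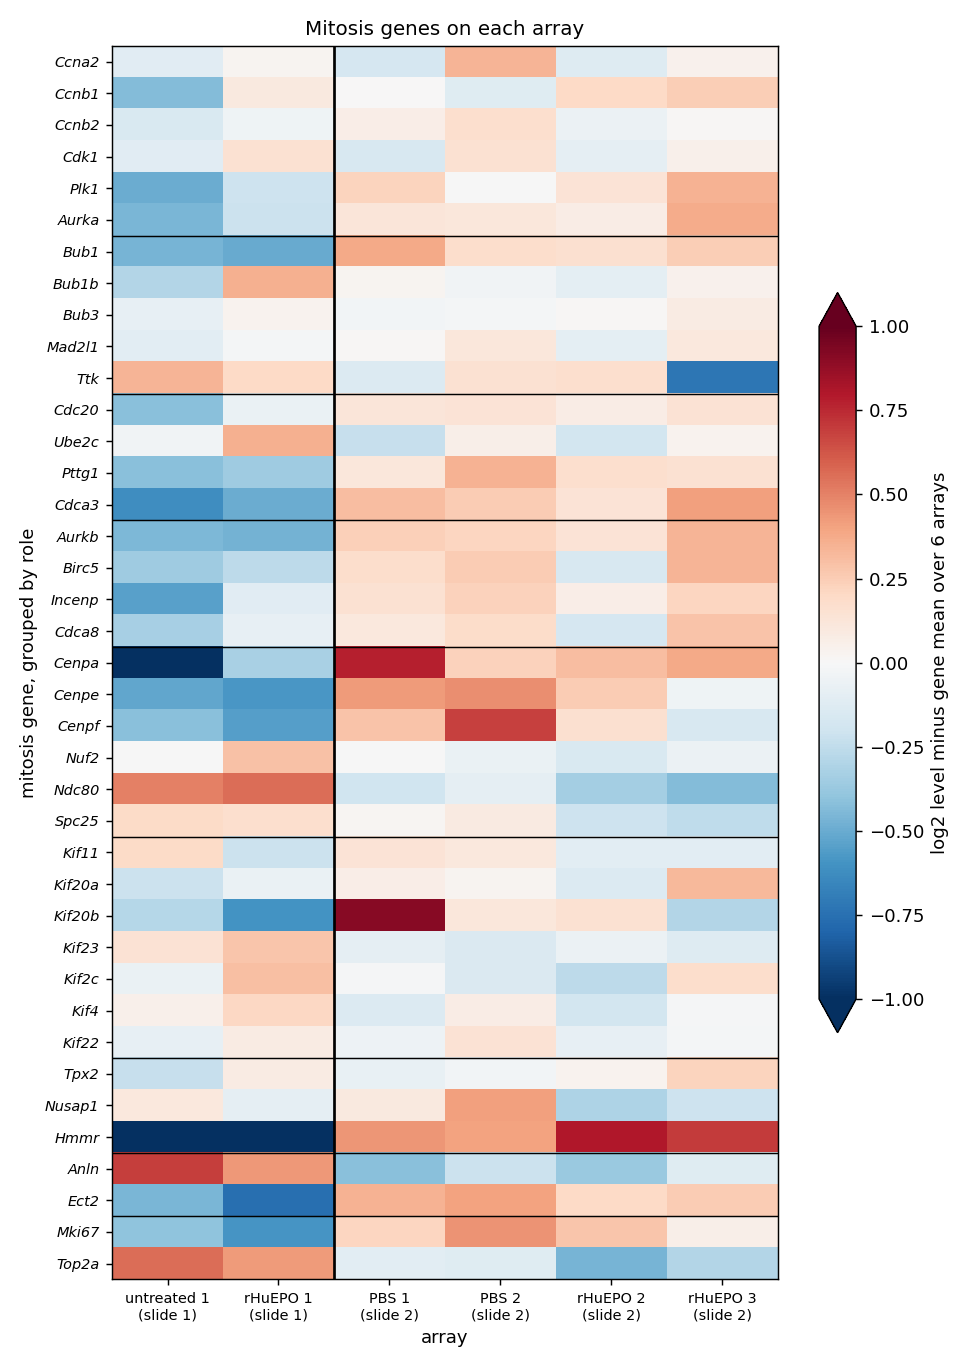
Level of each of the 39 tested mitosis genes on each array relative to the gene's mean over the 6 arrays, in log2 units (colours end at 1 unit either way), with rows grouped by role and slide 1 arrays left of the black line. The slide 1 arrays are low for genes such as Bub1, Cdca3, Aurkb, Hmmr and Mki67 and high for Ndc80, Anln and Top2a, in both arms.

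In 31 of the 39 members (79.5%) the difference between slides, fitted beside the arm, was larger in size than that between rHuEPO and control, as it was in 70.1% of all genes. Limma called 10 of the 39 mitosis genes between slide 2 and slide 1, where it called 10.6% of all genes. Of the 10, 7 were higher on slide 2 (Bub1, Cdca3, Aurkb, Cenpe, Hmmr, Ect2 and Mki67), against 7.18% of all genes, and 3 were lower (Ndc80, Anln and Top2a), against 3.43%. The differences, slide 2 minus slide 1, reached 1.76 ± 0.15 for Hmmr (limma adjusted p = 0.0166) and -0.84 ± 0.16 for Anln (limma adjusted p = 0.0362). This count fell to 0 when the untreated array or any 1 of the 3 rHuEPO arrays was removed, and was 12 and 9 when PBS replicate 1 or 2 was removed. With no filter on dim probes it was also 0, as it was with normexp on median signals, and it was 13 with normexp fitted without spots of uneven background and 16 with median scaling. Slide, scan and whatever else set the 2 runs apart cannot be told apart. Nor can injection be told from slide among the controls, since the slide 1 control was untreated and both slide 2 controls were PBS.

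Probes of the same gene did not always share the sign of this slide difference. Of 14 members with more than 1 tested probe, the slide differences of a gene's probes were of opposite sign in 6 (Cdca3, Cenpe, Ect2, Hmmr, Kif20b and Mki67). The Cenpe and Ect2 probes that read lower on slide 2 were well above background on 4 of the 6 arrays. For Kif20b 1 probe was so on 5 arrays, and the other probes of these 6 genes were on all 6. For Hmmr the brightest probe read 1.76 higher on slide 2 and the other read -0.92. For Mki67 the values were 0.75 and -0.79, and for Ect2 they were 0.91 and -0.28. The rHuEPO differences of the same probes were 0.19 and -0.16 for Hmmr, -0.17 and -0.33 for Mki67, and -0.20 for both Ect2 probes. Over the 14 genes the probes' rHuEPO differences were of opposite sign in 4 (Bub1, Cdca3, Hmmr and Kif4), or 28.6%, beside 30.4% of all named genes with more than 1 tested probe. Over the 14 genes the median distance between the outer probes was 0.70 for the slide difference and 0.11 for the rHuEPO difference. The distance was larger for the slide in 11 of the 14 (78.6%), and in 82.5% of the 3679 named genes with more than 1 tested probe. The sign of the slide difference varied among probes in 42.9% of the 14 and in 45.4% of the 3679.

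**Figure D4:**
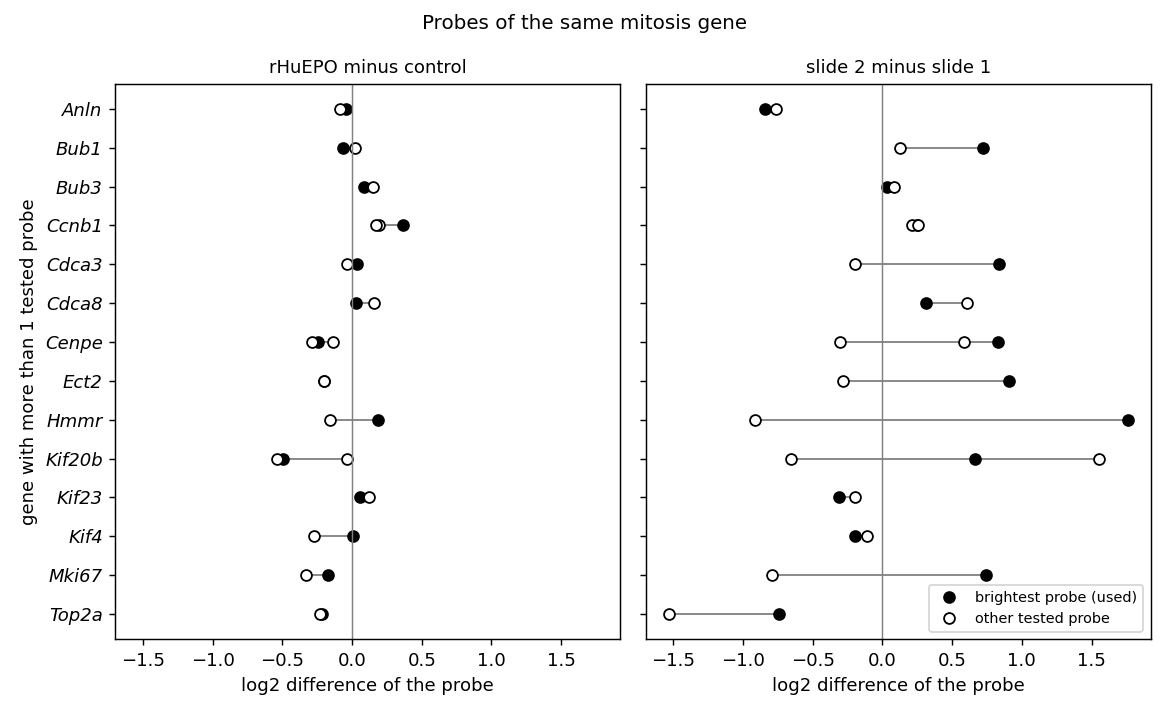
Log2 differences of every tested probe for the 14 mitosis genes with more than 1, between rHuEPO and control (left) and between slide 2 and slide 1 (right), with the brightest probe filled and a line joining probes of a gene. Probes lie within 0.50 of each other on the left and up to 2.68 apart on the right.

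With slide as a block the rHuEPO differences were the same by construction, and limma called 0 of the 39 members and 11 of all genes (0.0741%). At an unadjusted p under 0.05 it listed 2 members, Ccnb1 and Nusap1, and 11.3% of all genes. Their limma adjusted p with the block was 0.389 and 0.413. Within slide 1, which sets 1 array against 1, 25 of the 39 members lay above 0 with a median of 0.12, beside 50.7% of all genes and a median of 0.0048. Within slide 2, 12 of 39 lay above 0 with a median of -0.069, beside 46.9% and -0.019. The slide 1 control was untreated and those of slide 2 PBS, so comparing the slides' differences cannot tell slide from kind of control. The sign differed between the slides in 19 of 39 members (48.7%) and in 38.2% of all genes. No member passed a limma test of that difference, the interaction of slide and arm, and 1 did at an unadjusted p under 0.05, Cenpa, against 4% of all genes.

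Against the PBS arrays alone, in a fit with 3 groups, limma called 0 of the 39 members, where 3 genes in all (0.0202%) passed. At an unadjusted p under 0.05 it listed 1 member, Cenpf, at -0.67 ± 0.28, and 3.98% of all genes. The members' median was -0.10, with 13 above 0, beside -0.059 over all genes, where 5949 of 14853 lay above 0. The untreated array against PBS gave 0 calls in members and in all genes by limma, a median of -0.27 in members and -0.11 over all genes, and 28 of the 39 below 0. At an unadjusted p under 0.05 limma listed 5 members there (Incenp, Cenpa, Cenpe, Cenpf and Anln, named after their values were seen), against 5.41% of all genes. With a single untreated array these p-values take their spread from the PBS and rHuEPO arrays and assume that untreated marrow varies alike. In untreated against PBS, 11 of the 39 members and 6063 of all 14853 genes lay above 0. Untreated marrow lay on slide 1 and PBS on slide 2, so injection and slide cannot be told apart in this comparison.

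The other G2 and M phase genes, a list of 67 with 62 tested, gave 0 calls by limma and none at an unadjusted p under 0.05. Their median difference was -0.049, with 25 above 0. Knl1, the kinetochore scaffold, had the smallest p with -0.48 ± 0.22, followed by the kinase Mastl with -0.35 ± 0.19. DNA replication genes, read in S phase, gave 0 calls among 45 tested, 1 at an unadjusted p under 0.05, and a median of -0.0060. That 1 was Pold2, a subunit of DNA polymerase delta, with 0.49 ± 0.18.

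The medians of the erythroblast, granulocyte and B cell markers spanned a wider range over the arrays than that of the mitosis genes. Each value here is the list's median, on 1 array, of the log2 level minus the gene's mean over the 6 arrays. For the mitosis genes it was -0.23 on the untreated array, 0.069 and 0.14 on the PBS arrays, and -0.066, -0.056 and 0.056 on the rHuEPO arrays. The rHuEPO arrays lay inside the range of the controls, above the untreated array and below both PBS arrays. Single mitosis genes deviated further, from -1.38 for Cenpa on the untreated array to 0.91 for Kif20b on PBS replicate 1.

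For 13 tested erythroblast markers it was -0.14 on the untreated array, -0.55 and 0.10 on the PBS arrays, and 0.26, 0.022 and 0.24 on the rHuEPO arrays. Of these 13, 11 had a difference above 0, the median was 0.36, 3 reached an unadjusted p under 0.05 and none passed, with Sptb, a spectrin of the red cell membrane, at 1.24 ± 0.21 and Tfrc, the transferrin receptor, at 0.97 ± 0.19. The third, named after its value was seen, was Rhag, an Rh-associated glycoprotein of the red cell membrane, at 0.86 ± 0.22. All 13 were well above background on all 6 arrays. For B cell precursor markers it was 0.74 on the untreated array, -1.41 and 0.96 on the PBS arrays, and 0.10, -0.34 and -0.26 on the rHuEPO arrays. All 10 tested lay below 0 with a median of -0.26 and none passed, but against PBS alone 6 of the 10 lay above 0 with a median of 0.060, and within slide 2 the median was -0.087 with 3 above 0. The 2 with the smallest p were not past the test, Rag1 being at -0.78 ± 0.71 and Dntt at -0.45 ± 0.47.

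Granulocyte precursor markers stood at -0.19 on the untreated array, 0.40 and -0.13 on the PBS arrays and -0.26, -6.3e-05 and 0.21 on the rHuEPO arrays. The median of their 13 differences was -0.011, with 6 above 0, 7 below and none past the test. The 2 with the smallest p were Camp at -0.36 ± 0.21 and Fcnb at -0.25 ± 0.24. The median differences of the remaining lists were 0.23 for T and NK cells (8 tested; Cd8a 0.39, Gzmb 0.47), 0.36 for monocytes and macrophages (9 tested; C1qa 0.52, Siglec1 0.75), -0.10 for megakaryocytes (8 tested; Gp9 -0.37, Ppbp -0.38) and 0.037 for stem and progenitor cells (5 tested; Ly6a 0.36, Hlf 0.069), with none past the test in any. All 8 megakaryocyte markers lay below 0 within slide 1, with a median of -1.06, and all 8 above 0 within slide 2, with a median of 0.36. The part of cell composition in the mitosis values was not tested.

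**Figure D5:**
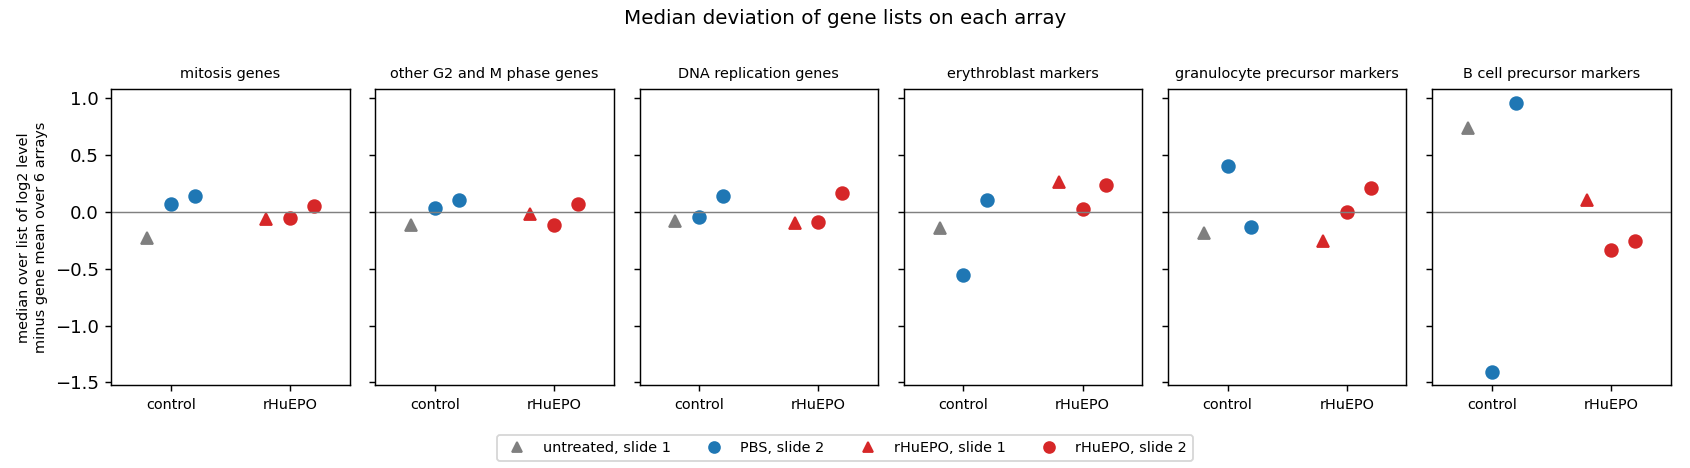
Median, over each gene list, of the log2 level minus the gene's mean over the 6 arrays, for every array by arm, with colours for untreated, PBS and rHuEPO and triangles for slide 1. The median of the mitosis genes stays between -0.23 and 0.14, while that of the B cell precursor markers runs from -1.41 to 0.96.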

How the data were processed

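Each of 6 samples of marrow RNA was Cy3-labelled and read on its own 1-colour Agilent array. Spot intensity was deposited as scanner output of Feature Extraction (version 10.7.3.1, per the file headers), with background already subtracted from the processed signal. A deposited table of log2 values served as an alternative. How the authors scaled it is unstated, but its columns followed scanner log2 values after centring every probe on its median (lowest slope 0.9996), which settles the direction. Column medians were -0.10 for untreated, -0.057 and -0.098 for PBS, and 0.12, 0.011 and 0.087 for rHuEPO.

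Processed signals were put on the log2 scale and each array's 75th percentile was subtracted. The 1639 control spots and outlier spots were left out, replicate spots were averaged, and probes well above background on 3 or more arrays were kept (19590 of 41174). A gene took its brightest kept probe. Accessions gave RefSeq names (GRCm38.p6) to 26690 probes. Saturation was seen on 0 spots. The 75th percentiles were 220.7 to 264.0 signal units, and 46.2% to 50.5% of gene spots were well above background. Limma 3.58.1 in R 4.3.3 (lmFit, eBayes, two-sided) was fitted to all 14853 genes with Benjamini-Hochberg adjustment and a threshold of 0.05. The comparison of rHuEPO with control was tested on simulated data (14853 genes, 200 of them changed), where limma found 30% of 2-fold and 70% of 4-fold changes, and made 9 calls among unchanged genes.

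The members and lists were chosen with earlier results of these data known. All members are accounted for, and values on every array are given for a named panel of members and for the 4 others with the smallest p. Of every other list the 2 genes with the smallest p are named, except 1 gene that is not reported here. Results were recomputed with quantile or median scaling, normexp (on median signals; mean signals were not used here), other filters, the deposited table, the mean of all probes, a trended robust prior, slide or replicate blocks, PBS alone, array weights and leaving out each array. Slide 2 alone and a second normexp fit were added after seeing the data.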

Additional observations from a re-analysis of the deposited data

How the results depend on the processing

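No mitosis gene passed limma in rHuEPO against control under any of the 20 other settings run. The members' median difference stayed within 1 SD of the value between arrays except with normexp on median signals, where it was 0.3889 (all genes 0.070) and 34 of 39 lay above 0. On PBS replicate 2 the scanner software had marked 28 spots for uneven background, with background-subtracted readings down to -62727.5, and normexp left that array's 25th percentile at 749.5, against 70.6 to 79.0 on the others. Fitted without those spots, a choice made after seeing the data, it was 71.4, and the members' median was 0.00089 with 20 above 0. With median scaling the median was 0.071 beside 0.059 for all genes, and 28 lay above 0. Over all settings the sign of 34 members changed at least once, and that of Ccnb1, Bub3, Kif11, Kif20b and Tpx2 did not.

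The number of genes called in rHuEPO against control, 10 in the report, was 1 with normexp, with no filter and with the replicate block, 4 with the second normexp fit, 5 with the filter on all 6 arrays, 3 against PBS alone and on slide 2 alone, 27 with array weights (24 higher, 3 lower), and 1 to 6 with 1 array left out. The count of members with separate arms was 5 (12.8%, beside 10.4% of all genes), 3 higher and 2 lower. It was 9 against PBS alone (23.1% beside 18.3%), 13 on slide 2 alone (33.3% beside 36.7%) and 3 with the second normexp fit (7.69% beside 9.7%). Leaving out 1 array gave 5 to 9, where the share of all genes was 13.6% to 27.7%. The mean of all probes gave 4 (10.3% beside 10.6%), 1 higher and 3 lower. Tpx2, which has 1 tested probe, was the 1 higher, so Ccnb1 and Bub3 no longer had separate arms. Rather than 3 genes against PBS, 1 was called with normexp, with no filter and with the filter on all 6 arrays, and 1 to 3 with 1 array left out. For untreated against PBS 70 genes were called with no filter, and no value could be had without the only untreated array. Between the slides 1577 genes were called, 2955 with median scaling, 0 with normexp (1841 with the second fit), 15 with no filter, and 0 to 2401 with 1 array left out. The causes of these moves were not tested. The deviations of samples with the same replicate number had a correlation of -0.071 for number 1 and -0.16 for number 2. Samples numbered 1 lay on both slides and those numbered 2 on slide 2 only. Without values for samples of unlike number, these correlations cannot show whether the numbers pair the samples. The replicate block gave a members' median of -0.044.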
